A study of Mus musculus with 4 samples.

Results

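Precursor genes of 10 hypothalamic neuropeptides, out of 32285 genes counted, were followed through single-nucleus RNA sequencing of the hypothalamus of WT and TRα1+m mice. The genes were taken from a list of names and not from measured values: Sst, Tac1, Penk, Gal, Nts, Vip, Cck, Ghrh, Kiss1 and Adcyap1. Earlier results of these data were known when the list was made. TRα1+m mice are heterozygous for an arginine-to-cysteine mutation of thyroid hormone receptor α1 that lowers its affinity for the hormone. All animals were adult males on the C57/BL6NCr background, and no treatment was given to either group. Each library pooled the nuclei of 3 mice with the same genotype, and each of 2 experimental repeats gave a WT and a TRα1+m library, so that n = 2 pools per genotype. The receptor mutation is carried by every cell of the body, so differences in neurons cannot be told apart from consequences of changes elsewhere.

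Neuropeptides are made as precursors, cut and amidated in the secretory pathway, stored in dense-core vesicles and released beside a fast transmitter. In the hypothalamus somatostatin and growth hormone-releasing hormone oppose each other in the control of pituitary growth hormone. Vasoactive intestinal peptide couples clock neurons of the suprachiasmatic nucleus, and kisspeptin drives the neurons that release gonadotropin-releasing hormone. Tachykinins (Tac1), enkephalins (Penk), galanin, neurotensin, cholecystokinin and PACAP (Adcyap1) act mainly on other neurons through G protein-coupled receptors. Because thyroid hormone receptors bind DNA and regulate transcription, the comparison of genotypes asked whether these transcripts differ when TRα1 signalling is impaired.

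Levels were read as UMIs (unique molecular identifiers, 1 per captured transcript) summed per library over a group of nuclei and scaled to the total of that group as CPM (UMIs per 1e+06 UMIs). The main neuronal cluster of the authors, Neurons_1, held 9564 and 8749 nuclei in WT repeats 1 and 2 and 10619 and 6824 in the TRα1+m repeats. Its median depth was 3989.5, 5227, 3797 and 4833.5 UMIs per nucleus in the same order. Glia (astrocytes, oligodendrocytes, oligodendrocyte precursors and microglia with macrophages) were shallower, with medians of 1640 to 2068 UMIs, and served as the background in which these precursors should be rare. The summed level of the neuronal markers Syt1, Snap25, Rbfox3 and Celf4 was 3721 to 3835 CPM in Neurons_1 and 563 to 806 CPM in glia. Between 44 and 64 barcodes of kept nuclei were shared by any pair of libraries.

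Upstream sequence was read from RefSeq (GRCm38.p6) for 9 of the 10 genes, to show what these promoters share. The cAMP response element TGACGTCA, through which CREB drives peptide genes, was searched on both strands in the 250 bases before each start. The 9 genes had 11 RefSeq starts, and a gene counted if any of its starts matched, while the shares are per promoter. Gene spans given below come from GENCODE, so the Sst stretch lies inside the Sst span. Among the matched genes only Sst held it, against 1.55% of 32851 promoters. The shorter form TGACGCA was found in Tac1 and Cck, against 1.75% of promoters. The core TGACG, which is contained in both, occurred in 8 of the 9 matched genes, Gal being the exception, against 17.8% of promoters. The thyroid hormone receptor core AGGTCA was found for Ghrh and Kiss1, against 14.02% of promoters. Capitals mark the matched letters in the 4 stretches shown, all 5′ to 3′ in the direction of the gene, and for Tac1 and Cck the match lies on the opposite strand.

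Sst, chr16:23890874-23890903, minus strand: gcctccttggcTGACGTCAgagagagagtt

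Tac1, chr6:7554851-7554879, plus strand: ttccctaaaatTGCGTCAtttcgaacaca

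Cck, chr9:121495726-121495754, minus strand: tcctgctggacTGCGTCAgcactgggtaa

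Vip, chr10:5639128-5639154, plus strand: gatcactactgTGACGtctttcgggga

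The precursors differed in their distribution over the 12 neuronal sub-clusters that were tested, although some shared the sub-cluster of their highest level. Tested sub-clusters were those in which no library had fewer than 10 nuclei. Somatostatin (Sst, ENSMUSG00000004366, chr16:23889573-23890958) was highest in the sub-cluster named Somatostatin+ Neurons, at 259 and 1307 CPM in WT and 283 and 1256 CPM in TRα1+m repeats 1 and 2. That sub-cluster was named for Sst, so its first place is no result. NPY/AgRP Neurons came next at 289 ± 157 CPM (SD, n = 4 libraries) and were below Somatostatin+ Neurons in all 4 libraries. Tac1, the precursor of substance P and neurokinin A, was highest in Glutamatergic Neurons_3, at 170 and 827 CPM in WT and 165 and 1033 CPM in TRα1+m. Glutamatergic Neurons_1 followed at 283 ± 217 CPM and was lower in all 4 libraries.

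Vip was the most restricted member. In AVasopressin Neurons it stood at 141 and 790 CPM in WT and 121 and 380 CPM in TRα1+m, and the sub-cluster next in order, MCH Neurons, was at 12.2 ± 10.1 CPM. AVasopressin Neurons also held the highest level of Vipr2, the receptor for this peptide and for PACAP, at 171 CPM against a mean of 7.61 ± 1.29 CPM over Neurons_1. The gene of its label, Avp, was second highest there of the 12 sub-clusters, at 3042 ± 2163 CPM. Penk was also highest in this sub-cluster, at 42.0, 28.0, 30.7 and 79.4 CPM in WT 1, WT 2, TRα1+m 1 and TRα1+m 2. It was above Glutamatergic Neurons_1 in only 3 of 4 libraries, and the difference of 7.6 CPM was smaller than its SD of 23.4 over libraries.

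By mean CPM, CART Neurons_1 led for Nts, Cck and Adcyap1. Adcyap1, encoding PACAP, was at 160 and 352 CPM in WT and 155 and 415 CPM in TRα1+m, above Glutamatergic Neurons_2 in all 4 libraries. Cck was at 56.0 and 280 CPM in WT and 90.9 and 367 CPM in TRα1+m, above Glutamatergic Neurons_3 in all 4 libraries. Nts was at 51.9 and 143 CPM in WT and 74.2 and 253 CPM in TRα1+m, and exceeded GABA Neurons in 3 of 4 libraries. Cartpt, for which the sub-cluster is named, ranked 3 of 12 there, whereas Slc17a6, the vesicular glutamate transporter, was higher there than in any other tested sub-cluster, at 370 CPM. Over the 48 sums of library and sub-cluster, centred per library, Adcyap1 resembled Bdnf most (Pearson r = 0.80), then Gpr83 (0.78) and Slc17a6 (0.78).

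Gal and Ghrh were both highest in GABA Neurons. Gal was at 108 and 392 CPM in WT and 99.7 and 364 CPM in TRα1+m, above Oxytocin+, AVP Neurons in all 4 libraries. Ghrh was at 13.3 and 25.3 CPM in WT and 14.8 and 23.6 CPM in TRα1+m, above Glutamatergic Neurons_1 in all 4 libraries. In repeat 1, the levels of Gal and Ghrh over all Neurons_1 were below those of glia in both libraries. A Ghrh UMI was held by 2.51% of WT and 2.60% of TRα1+m glial nuclei in that repeat. Whether GABA Neurons exceeded glia in Ghrh in repeat 1 was not tested. Among the closest patterns to the other members over the same 48 points were Pth2r for Sst (r = 0.79), Nnat for Vip (0.85), Syt13 for Penk (0.83) and Nxph4 for Cck (0.83). These points share libraries and depth, so the coefficients are descriptions.

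**Figure D1:**
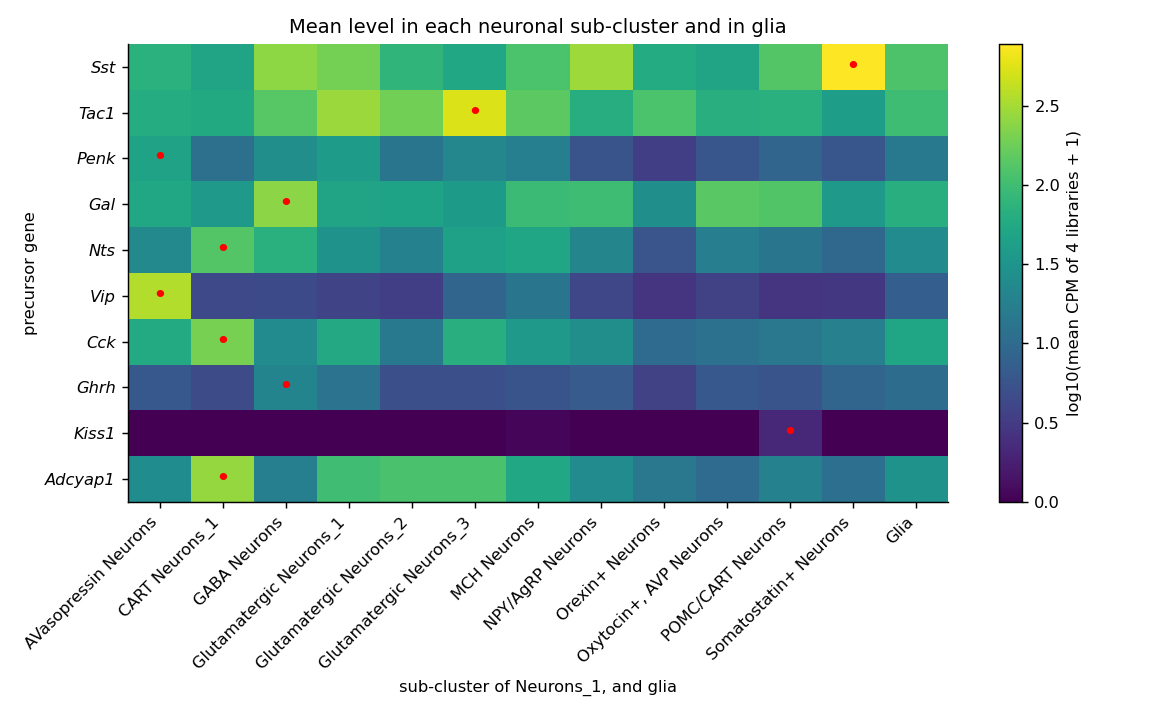
Colour gives log10 of the mean CPM of 4 libraries plus 1 for each precursor (rows) in 12 neuronal sub-clusters and in glia (columns), and a red dot marks the highest sub-cluster. Vip stands out in AVasopressin Neurons, while Nts, Cck and Adcyap1 share CART Neurons_1.

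Kiss1 was at the limit of detection. It had 5 UMIs in 171323516 UMIs of Neurons_1, or 0.0292 CPM (95% exact Poisson interval 0.0095 to 0.068, counting error only), and 1 UMI in glia. Of the 5 neuronal UMIs, 4 lay in POMC/CART Neurons, at 1.16 CPM (0.316 to 2.97). No nucleus held more than 1 UMI, and Kiss1 did not pass the filter on low counts. In the edgeR fit without that filter its log2 fold change between genotypes in Neurons_1 was 0.64 ± 1.32 (adjusted p = 1.0), which rests on these 5 UMIs, so a difference was not detectable at this depth.

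The level of most members differed far more between the experimental repeats than between genotypes. In Neurons_1, Sst was at 94.6 and 101 CPM in WT and TRα1+m of repeat 1 and at 239 and 275 CPM in repeat 2. In glia the same gene was at 175 and 192 CPM in repeat 1 and at 63.6 and 47.7 CPM in repeat 2. Both repeat 2 libraries were thus above both repeat 1 libraries in neurons and below them in glia. Tac1 in Neurons_1 was at 85.9 and 92.0 CPM in repeat 1 and at 278 and 348 CPM in repeat 2. Gal in Neurons_1 was at 74.0 and 69.9 CPM in repeat 1 and at 179 and 183 CPM in repeat 2, while in glia it was at 98.9 and 92.8 CPM and then at 42.4 and 27.3 CPM.

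**Figure D2:**
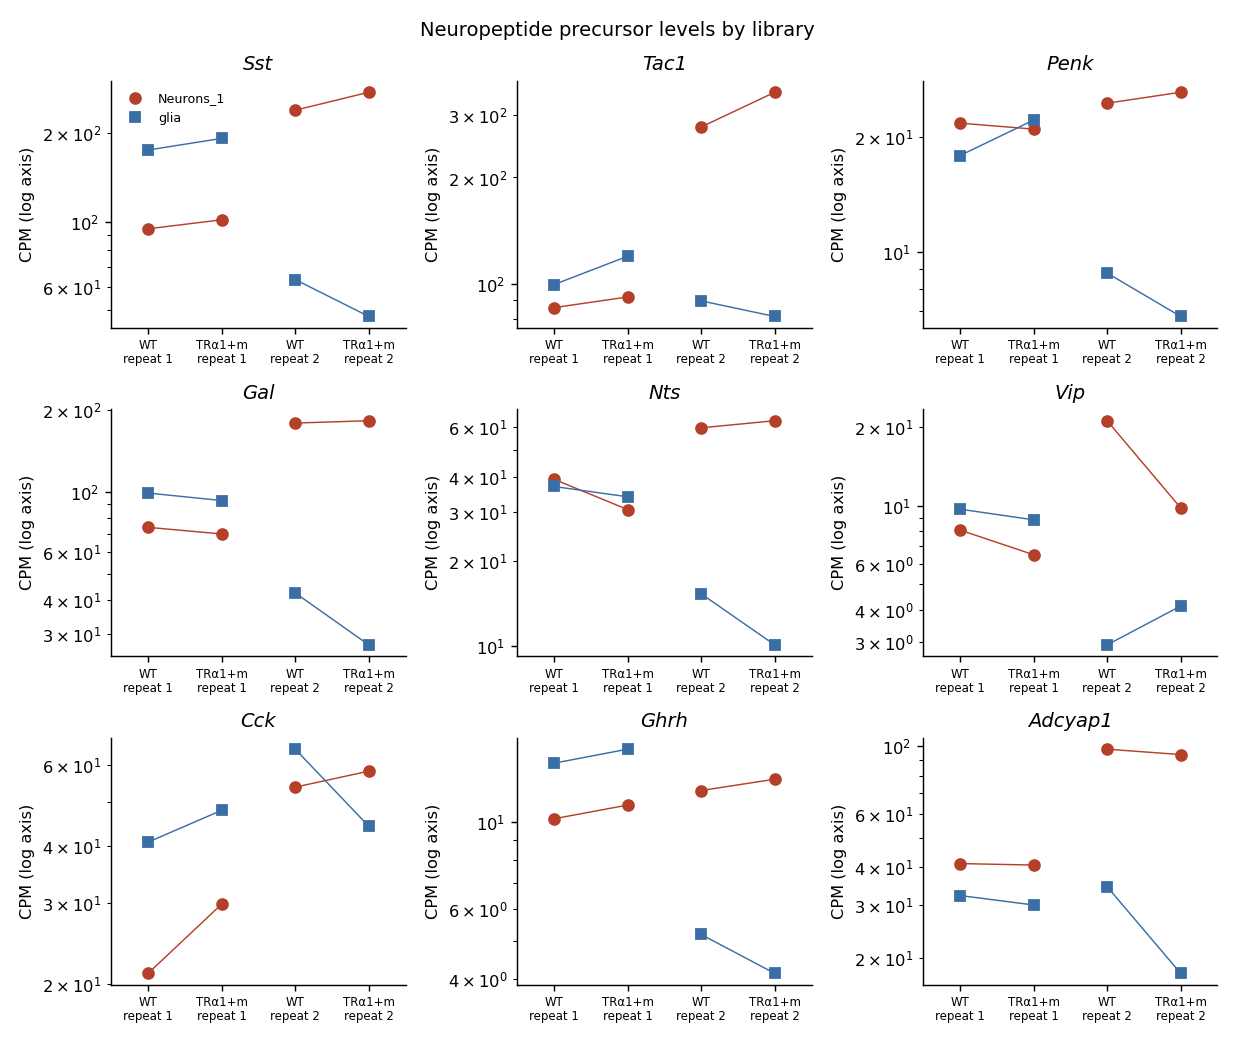
Each panel plots CPM on a log axis for a precursor in Neurons_1 (circles) and glia (squares) of the 4 libraries, with lines joining the genotypes of a repeat. For Sst, neurons lie below glia in repeat 1 (94.6 against 175 CPM in WT) and above glia in repeat 2 (239 against 63.6 CPM).

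By the edgeR quasi-likelihood test with genotype in the model, 7 of the 9 members tested rose in repeat 2 in Neurons_1, where 13.2% of all genes tested rose. The log2 fold changes were 1.77 ± 0.07 (SE) for Tac1, 1.35 ± 0.06 for Sst, 1.29 ± 0.07 for Gal, 1.20 ± 0.07 for Adcyap1 and 1.12 ± 0.11 for Cck, with adjusted p between 1.1e-05 and 0.00034. Vip (0.97 ± 0.20, adjusted p = 0.013) and Nts (0.79 ± 0.11, adjusted p = 0.0024) also passed. Penk (0.21 ± 0.10, adjusted p = 0.16) and Ghrh (0.19 ± 0.12, adjusted p = 0.29) did not. The median over the 9 members was 1.12, against 0.0055 over all genes tested. The call for Vip was lost without WT repeat 1, WT repeat 2 or TRα1+m repeat 1 (adjusted p = 0.39, 0.19 and 0.53), and that for Nts without TRα1+m repeat 2 (adjusted p = 0.059).

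In glia 7 of 9 members fell in repeat 2, where 10.1% of all genes tested fell. The log2 fold changes were −1.78 ± 0.12 for Sst, −1.70 ± 0.22 for Ghrh, −1.54 ± 0.16 for Nts, −1.53 ± 0.13 for Gal, −1.45 ± 0.26 for Vip, −1.41 ± 0.19 for Penk and −0.41 ± 0.11 for Tac1. Cck (0.23 ± 0.16, adjusted p = 0.36) and Adcyap1 (−0.35 ± 0.18, adjusted p = 0.19) did not pass. The glial Cck level rested in part on nuclei that carried Cga, a pituitary hormone gene, and without them it was at 40.2 and 47.1 CPM in repeat 1 and at 30.8 and 28.7 CPM in repeat 2, values that were not tested. When the difference between the repeat effects was tested itself, 8 of 9 members differed between Neurons_1 and glia, all with the larger value in neurons, as did 3.53% of all genes. The exception was Cck (0.86 ± 0.20, adjusted p = 0.071). In repeat 1 the level in Neurons_1 was above that of glia in both libraries for 1 of 9 members, Adcyap1, and below it in both for 6. In repeat 2 it was above in both libraries for 8 of 9, and Cck was the exception. Without the Cga nuclei, Cck in Neurons_1 (53.8 and 58.3 CPM) was above glia in both repeat 2 libraries too. These counts above or below glia were taken for the members only. No share over all genes stands beside them, so they describe the members and do not set them apart from other genes.

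The same opposition was seen inside the neuronal cluster. Over 80 tests of a member in a sub-cluster, 33 rose and 14 fell in repeat 2, where 7.94% of all tests of a gene in a sub-cluster rose and 7.27% fell. Sst rose by 2.20 ± 0.13 on the log2 scale in Somatostatin+ Neurons but changed by −1.92 ± 0.20 in CART Neurons_1 and by −1.48 ± 0.22 in AVasopressin Neurons. Vip rose by 2.05 ± 0.14 in AVasopressin Neurons and changed by −0.82 ± 0.25 in GABA Neurons. Ghrh rose by 0.76 ± 0.13 in GABA Neurons and changed by −1.98 ± 0.39 in Glutamatergic Neurons_2. The falls named here were in sub-clusters where the gene was low on average over the 4 libraries. Sst was at 48.1 ± 32.0 CPM (SD) in CART Neurons_1 and 69.4 ± 38.1 CPM in AVasopressin Neurons. Vip was at 3.43 ± 1.14 CPM in GABA Neurons, and Ghrh at 4.01 ± 2.72 CPM in Glutamatergic Neurons_2. Tac1 in Glutamatergic Neurons_3 (2.41 ± 0.12), Cck in CART Neurons_1 (2.09 ± 0.13) and Gal in GABA Neurons (1.82 ± 0.07) rose where each was highest. Of the 9 members tested, Penk alone did not pass in the sub-cluster where it was highest (0.36 ± 0.25, adjusted p = 0.44). The highest sub-cluster was chosen by the mean CPM of these same libraries, which favours sub-clusters that rose in repeat 2. Rises there are therefore descriptions and no separate support.

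The repeats also differed in how the UMIs of a precursor were spread over nuclei. In Neurons_1, 28.6% and 29.3% of nuclei held at least 1 Sst UMI in repeat 1, close to the 26.9% and 28.5% in glia despite the shallower glial depth. The source of these UMIs was not tested. In repeat 2 the shares were 19.2% and 18.5% in neurons and 11.7% and 8.93% in glia. Nuclei with at least 5 Sst UMIs, called Sst-high here, made up 0.669% (95% Wilson interval 0.524 to 0.854) of WT and 0.659% (0.522 to 0.832) of TRα1+m neurons in repeat 1. In repeat 2 they made up 4.78% (4.35 to 5.24) and 5.30% (4.798 to 5.86), and the glial share was at most 0.0882% in any library. Sst-high nuclei held 15.9% and 13.0% of the Sst UMIs of Neurons_1 in repeat 1 and 84.2% and 86.6% in repeat 2. Intervals cover counting error only.

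Other members moved likewise. Tac1-high nuclei made up 1.05% (Wilson interval 0.860 to 1.27) and 0.819% (0.665 to 1.01) of neurons in repeat 1, and 8.78% (8.20 to 9.39) and 9.95% (9.26 to 10.7) in repeat 2. Adcyap1-high nuclei made up 0.0836% (0.042 to 0.165) and 0.0753% (0.038 to 0.149) in repeat 1, and 2.01% (1.74 to 2.33) and 1.92% (1.62 to 2.27) in repeat 2. Cck-high nuclei made up 0.0314% (0.011 to 0.092) and 0.0659% (0.032 to 0.136) in repeat 1, and 1.35% (1.13 to 1.61) and 1.42% (1.17 to 1.73) in repeat 2. The depth of Neurons_1 nuclei was also higher in repeat 2. After thinning every nucleus to 900 UMIs the share with at least 2 Tac1 UMIs was 0.627% and 0.753% in repeat 1 and 5.04% and 6.24% in repeat 2. For Sst the thinned shares were 0.868% and 0.904% against 3.04% and 3.47%. In glia, thinned alike, the Sst shares were 1.23% and 1.71% in repeat 1 and 0.353% and 0.234% in repeat 2, so neurons were above glia in repeat 2 and not in repeat 1.

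**Figure D3:**
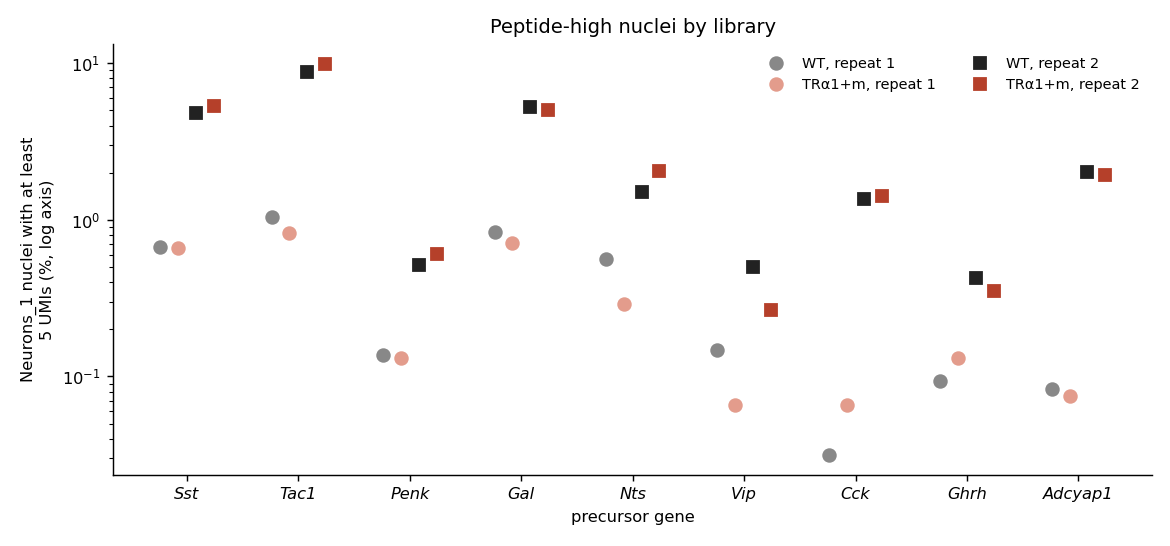
The share of Neurons_1 nuclei with at least 5 UMIs (percent, log axis) is plotted for 9 precursors in each library. For Tac1 the repeat 1 libraries lie at 1.05% and 0.819% and the repeat 2 libraries at 8.78% and 9.95%.

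Peptide-high nuclei were described by the transmitter genes and other peptides they carried, pooled over libraries and with no test, since most come from repeat 2 and they are deeper than other nuclei. Of 84 Ghrh-high nuclei, 84.5% held a Gal UMI against 20.1% of the remaining Neurons_1 nuclei. Their Gal level was 538, 2051, 514 and 3113 CPM in WT 1, WT 2, TRα1+m 1 and TRα1+m 2, against 69.2 to 171 CPM in the rest. Esr1, the oestrogen receptor α gene, was found in 58.3% of them against 11.9%. Most Ghrh-high nuclei (85.7%) and Gal-high nuclei (87.0%) carried the GABA Neurons label, and 69.7% of Gal-high nuclei held a UMI of Gad2, a GABA-synthesising enzyme, against 37.2%.

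Adcyap1-high nuclei were largely glutamatergic by these genes. A Slc17a6 UMI was present in 85.1% of 323 nuclei against 37.4% of the rest, and the growth factor gene Bdnf in 41.2% against 8.8%. Cck-high nuclei held a Slc17a6 UMI in 71.6% and an Adcyap1 UMI in 60.9%, against 37.6% and 18.5%. Of 1634 Tac1-high nuclei, 66.6% held a Slc17a6 UMI and 45.2% an Adcyap1 UMI, against 36.4% and 17.5%. Nts-high nuclei stood out for Crh, the corticotropin-releasing hormone gene, in 14.1% of 355 nuclei against 0.9%. By label, 58.3% of them were GABA Neurons and 15.8% CART Neurons_1, where the mean CPM of Nts was highest. GABA Neurons also held 49.7% of Sst-high and 44.2% of Penk-high nuclei. Somatostatin+ Neurons held 12.6% of the Sst-high nuclei and AVasopressin Neurons 5.31% of the Penk-high nuclei. Of all Neurons_1 nuclei, 42.1% carried the GABA Neurons label. Vip-high nuclei carried the AVasopressin Neurons label in 85.5% of 83 cases, and 51.8% held a UMI of Gad1 against 24.7%. Their median depth of 3524 UMIs was below the 4383 of the rest, whereas that of the other sets named here was above it.

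**Figure D4:**
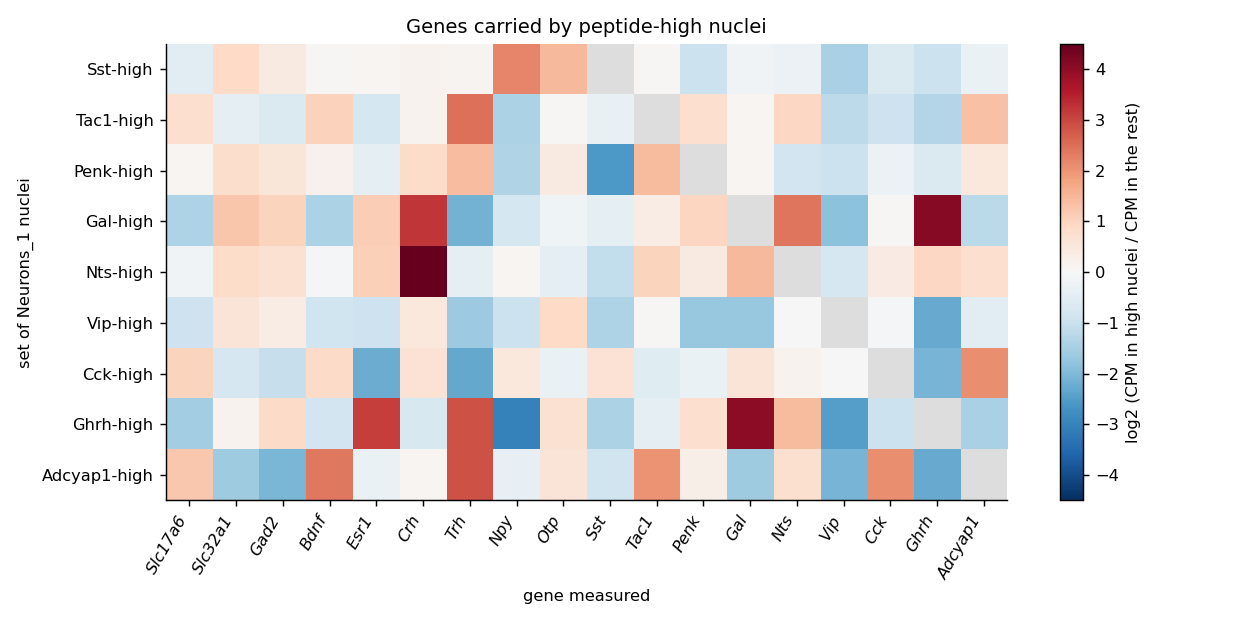
Colour gives log2 of the ratio between CPM in peptide-high nuclei (rows) and CPM in the remaining Neurons_1 nuclei for each gene (columns), with grey for the gene that chose the nuclei. Gal in Ghrh-high nuclei (1979 against 120 CPM) and Crh in Nts-high nuclei (65.5 against 2.6 CPM) are among the darkest cells.

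Between genotypes, none of the 9 members tested was called in Neurons_1 by edgeR's quasi-likelihood test, where 0% of 19926 genes were called. At an unadjusted p under 0.05 there were 0 members and 193 genes, and DESeq2 called 0 members. These fits left the repeat out, so the difference between repeats counted as variation within a genotype. With the repeat as block edgeR called 0 members and 2 genes in Neurons_1. At an unadjusted p under 0.05 there were then 1 member and 1583 genes (7.94%). The values that follow for Neurons_1 come from the fit without the block. Vip had the lowest level in TRα1+m relative to WT, at 8.06 and 21.1 CPM in WT and 6.49 and 9.80 CPM in TRα1+m, a log2 fold change of −0.90 ± 0.50 (adjusted p = 1.0). Both TRα1+m libraries were below the WT library of their repeat, by 0.31 and 1.11 on the log2 scale, but the groups overlapped. The other 8 lay between −0.14 (Nts, SE 0.39) and 0.21 (Tac1, SE 0.78). The median over the members was −0.038, against 0.0092 over all genes. No member was called in glia, and none had a genotype difference that differed between Neurons_1 and glia, with 0 members at an unadjusted p under 0.05 in either test by edgeR. Over all genes, 0 of 16719 were called in glia and 0 of 19659 for the difference, with 2.38% and 2.54% at an unadjusted p under 0.05. The test of the difference had no term for a repeat effect that differs between Neurons_1 and glia, so such effects counted as spread. Its SE on the log2 scale ran from 0.49 for Cck to 2.04 for Sst, so it could miss sizeable differences.

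**Figure D5:**
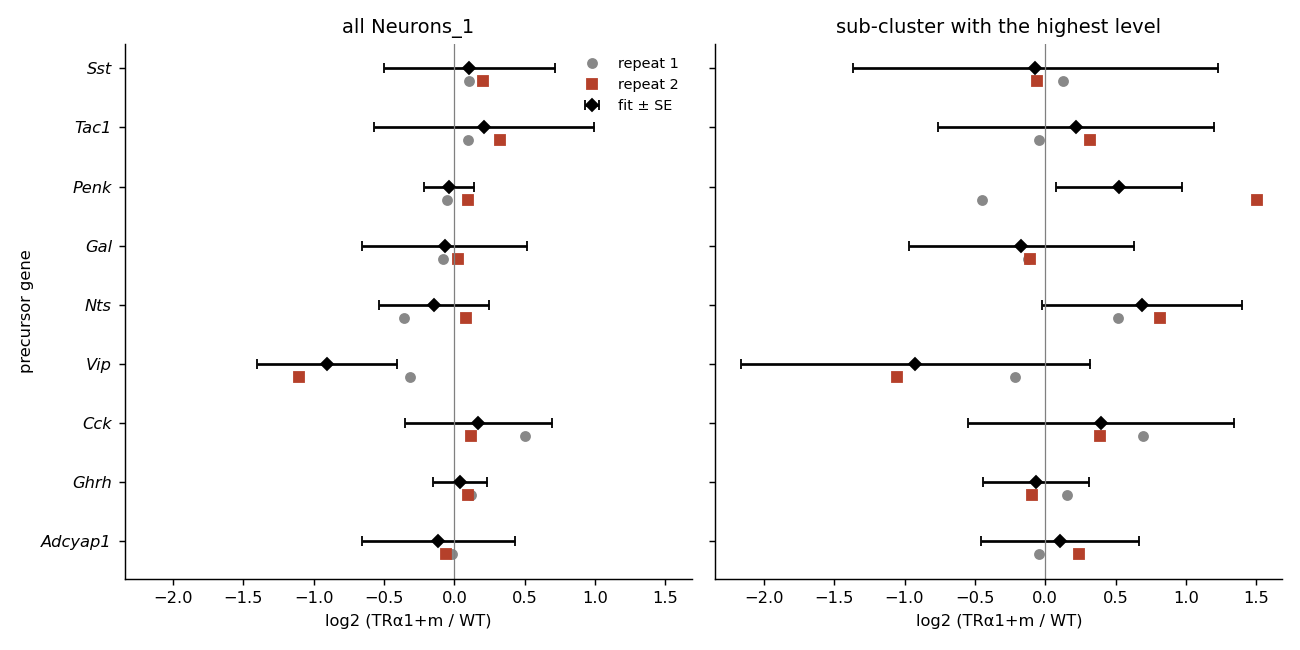
Diamonds with bars give the fitted log2 fold change TRα1+m over WT with its SE, and circles and squares the values within repeats 1 and 2, for Neurons_1 (left) and the sub-cluster where each precursor was highest (right). Vip lies lowest in both panels, at −0.90 and −0.92.

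In the 12 sub-clusters none of 80 tests of a member passed without a block, against 0.00367% of all tests of a gene in a sub-cluster. The unadjusted p by edgeR was under 0.05 in 3 of the 80, against 2307 of all 136098 tests. Because each repeat held a library of each genotype, the repeat was also fitted as a block, and 6 of 80 then passed, against 0.42% of all tests. Fits of repeat and genotype together, also used for the repeat contrast, leave little of the 4 libraries to measure a gene's own spread. Their SE and p rest largely on variation shared across genes. Cck in Glutamatergic Neurons_3 was at 17.1 and 61.9 CPM in WT and 39.7 and 143 CPM in TRα1+m. It was higher in TRα1+m by 1.22 and 1.21 on the log2 scale in repeats 1 and 2, and by 1.17 ± 0.13 in the blocked fit (adjusted p = 0.024). Nts in CART Neurons_1 was likewise higher in TRα1+m in both repeats, by 0.52 and 0.82 (blocked 0.67 ± 0.14, adjusted p = 0.019). Neither was called without the block.

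Vip in AVasopressin Neurons was lower in TRα1+m by 0.22 and 1.06 on the log2 scale in repeats 1 and 2 (blocked −0.73 ± 0.13, adjusted p = 9.8e-05), and without the block the change was −0.92 ± 1.24. The blocked SE does not measure the spread between these repeats. Vip-high nuclei of that sub-cluster numbered 13 of 388 and 36 of 254 in WT, and 7 of 365 and 15 of 175 in TRα1+m. Nts in GABA Neurons was at 52.8 and 96.3 CPM in WT and 38.1 and 81.7 CPM in TRα1+m (blocked −0.40 ± 0.09, adjusted p = 0.016). Nts in AVasopressin Neurons was at 58.3 and 8.0 CPM in WT and 13.2 and 9.34 CPM in TRα1+m (blocked −1.70 ± 0.37, adjusted p = 0.0023), so its direction was not shared by the repeats. The high value was that of WT repeat 1 alone, which also held all 3 Nts-high nuclei of AVasopressin Neurons. Sst in the sub-cluster labelled Orexin+ Neurons was at 31.4 and 25.6 CPM in WT and 72.1 and 104 CPM in TRα1+m (blocked 1.68 ± 0.34, adjusted p = 0.00033). These rest on 9, 18, 31 and 45 UMIs, and Hcrt, the orexin gene, was lower in that sub-cluster than in the other 11, at 69.6 ± 30.6 CPM.

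The shares of peptide-high nuclei overlapped between the genotypes for every member with such nuclei, and an exact permutation test of 2 against 2 libraries cannot give a two-sided p below 0.33. The mean share of Sst-high nuclei was 2.72% ± 2.91 (SD, n = 2) in WT and 2.98% ± 3.28 in TRα1+m. For Vip it was 0.325% ± 0.252 and 0.165% ± 0.140. These SDs include the difference between the repeats. Within repeats 1 and 2, TRα1+m minus WT was −0.010 and 0.53 percentage points for Sst and −0.080 and −0.24 for Vip.

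Of 45 other genes of these peptide systems (receptors, processing and vesicle genes, and related precursors), 39 were tested in Neurons_1. Without a block none was called between genotypes by edgeR, with none at an unadjusted p under 0.05. Their median log2 fold change was −0.067. With the repeat as block edgeR again called none. The unadjusted p was then under 0.05 for Pcsk2, Cadps, Tac2, Vipr2, Chgb and Pomc, all lower in TRα1+m, and for Npy, which was higher. Of all genes, 7.94% were under 0.05 in that fit. Among receptors, Oprm1, the μ-opioid receptor, was at 103 ± 3.01 CPM (SD, n = 4), Tacr1, the substance P receptor, at 25.0 ± 3.87 CPM, and Sstr2 at 11.99 ± 3.45 CPM. Tacr1 was highest in Somatostatin+ Neurons, at 233 CPM. Ntsr2, Sort1 and Adcyap1r1 were higher in glia (277, 114 and 108 CPM) than in Neurons_1 (25.5, 68.0 and 55.3 CPM). Between repeats, 20 of the 39 rose and 3 fell in repeat 2, against 13.2% and 12% of all genes tested. All 5 related precursors tested rose, among them Pomc (1.68) and Npy (1.45), as did 9 of 14 processing and vesicle genes, among them Chga (1.22) and Scg5 (1.01). Of these 9, Chga (0.87) and Qpct (0.91) also rose in glia, while Pcsk1n (−0.95) and Scg2 (−0.61) fell there. The rest of the 9 were not called in glia. Receptors rose in 6 of 20 cases, and Oprm1 (−0.10, adjusted p = 0.29) was not called.

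Cck differed from the other members in glia. Under the label for microglia and macrophages it was at 70.5 and 459 CPM in WT and 88.7 and 245 CPM in TRα1+m, and 38 of 1779 nuclei there were Cck-high, 26 of them in WT repeat 2 and 11 in TRα1+m repeat 2. Of these 38 nuclei, 97.4% held a UMI of Cga, the common subunit of the pituitary glycoprotein hormones, and 76.3% one of Tshb, the thyrotropin β subunit. The other fixed pituitary markers, Gh and Prl, were at 0, as was the microglial gene Cx3cr1. Without microglia-labelled nuclei holding at least 2 Cga UMIs, Cck there was at 63.2 and 52.9 CPM in WT and 78.7 and 25.2 CPM in TRα1+m. In all glia Cck then changed from 65.1 to 30.8 CPM in WT repeat 2 and from 44.2 to 28.7 CPM in TRα1+m repeat 2.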

How the data were processed

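The authors counted UMIs with Cell Ranger 5.0.1, introns included, on mm10 (GRCm38) and deposited raw counts per nucleus and gene, without normalisation. They filtered nuclei on counts, features, mitochondrial share and doublet score, and clustered them in Seurat. Main clusters came from the merged libraries without batch correction, which was applied within clusters before sub-clustering. As a check, the authors also corrected the whole dataset and reported that very few main annotations changed. Their deposited annotation of kept nuclei and clusters was used as given, and neither clustering nor doublet scoring was repeated. Kept nuclei had at least 901 UMIs, and totals per library were 47260127 to 59112785 UMIs. The members and gene lists were chosen with earlier results of these data known. Every member is named with its level in the tested sub-cluster with its highest mean CPM. In Neurons_1 and in glia, some members are given by level or UMI count and others only by their fold change between repeats.

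Counts were summed per library and cell group. Genes passing filterByExpr were tested in R 4.3.3 with the robust quasi-likelihood F-test of edgeR 4.0.16 (TMM factors, two-sided), with Benjamini-Hochberg adjustment over all genes tested in a cell group, and calls were made at an adjusted p of 0.05. The code was tested on simulated data. Tried beside these were DESeq2 1.42.0, RLE factors, unfiltered genes, a bias-adjusted quasi-likelihood fit, a replicate block, omission of each library and, in Neurons_1, omission of the 1% of nuclei with most UMIs of a member. The repeat contrast in glia and sub-clusters, its difference between Neurons_1 and glia, and the removal of Cga nuclei were added after seeing the data. The pairing of libraries by repeat comes from the study's methods. Deviations of same-numbered libraries from their genotype mean correlated across 17106 genes in Neurons_1 (r = 0.78). Pools of 3 mice are the replicates, and fewer cells of a type and less RNA per cell cannot be told apart in a summed level. A marker gene of the fixed lists is not reported here.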

Additional observations from a re-analysis of the deposited data

Results flagged for a closer look

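The repeat contrast differed between Neurons_1 and glia for 8 members, by a test of the difference itself with a block per library. The log2 fold change of repeat 2 over repeat 1 in Neurons_1 minus that in glia was 3.11 for Sst, 2.80 for Gal, 2.49 for Vip, 2.30 for Nts, 2.17 for Tac1, 1.87 for Ghrh, 1.61 for Penk and 1.51 for Adcyap1. Adjusted p by edgeR ranged from 9.0e-05 (Tac1) to 0.047 (Adcyap1). Median depth in Neurons_1 also differed between the repeats, and its part in the result was not tested.

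Neurons_2, a neuronal cluster used in no comparison, held 852 nuclei in TRα1+m repeat 2 and 1 to 6 nuclei in each other library. Penk was at 70.4 CPM there (95% exact Poisson interval 60.9 to 80.9) against 26.2 CPM in Neurons_1 of the same library. Vip was at 52.6 CPM (44.5 to 61.8) against 9.80 CPM. Sst (24.2 against 275 CPM), Tac1 (45.1 against 348 CPM), Gal, Nts, Cck, Ghrh and Adcyap1 were lower in Neurons_2. The study regarded Neurons_2 as an experimental artifact. With nearly all of its nuclei in a single library, the cluster and that library cannot be told apart.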

How the results depend on the processing

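The number of members called between genotypes in Neurons_1 (0), in glia (0) and in the difference between both (0) stayed the same under every alternative run, as did the count for other peptide genes (0). For the difference, no alternative fitted a repeat effect that differs between Neurons_1 and glia. Over sub-clusters it was 6 with the replicate block against 0 without, and 0 to 1 when a library was left out. The call gained without WT repeat 2 was Sst in Somatostatin+ Neurons, and that gained without TRα1+m repeat 1 was Sst in Orexin+ Neurons. Members called between repeats in Neurons_1 numbered 7, where 13.2% of all genes tested rose. On leaving out a library, in fits that dropped the genotype term, the median log2 fold change of the members was 1.12 to 1.26. Over all genes tested it was −0.0054 to 0.012. The calls lost in these fits are given above. The difference of the repeat contrast was called for 8 members, or for 9 with oligodendrocytes alone in place of all glia. In the same direction, 694 of 19659 and 380 of 18720 genes were called in these fits.

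Of 171 alternative log2 fold changes between genotypes, 138 kept direction and call, 2 gained a call with the direction kept (both with the replicate block) and 31 turned direction, all of them on leaving out a library, which unbalances the repeats. Of these 31, 1 was also called (Sst in Somatostatin+ Neurons without WT repeat 2, 1.51). In Neurons_1 the ranges on leaving out a library were −0.75 to 0.90 for Sst, −1.02 to 1.26 for Tac1, −0.18 to 0.093 for Penk, −0.89 to 0.68 for Gal, −0.73 to 0.27 for Nts, −0.37 to 0.98 for Cck, −0.061 to 0.14 for Ghrh and −0.82 to 0.62 for Adcyap1. Vip stayed below 0, from −1.43 to −0.072. In the sub-cluster with the highest level they were −1.52 to 1.51 for Sst, −1.59 to 1.71 for Tac1, −0.21 to 1.10 for Penk, −1.35 to 1.01 for Gal, −0.42 to 1.56 for Nts, −1.91 to 0.73 for Vip, −0.90 to 1.93 for Cck, −0.44 to 0.44 for Ghrh and −0.74 to 0.74 for Adcyap1. An arm left with a single library was assumed to vary like the other. Without the 1% of nuclei richest in a member, Vip in Neurons_1 moved from −0.90 to −0.51, Nts from −0.14 to −0.029, Cck from 0.17 to 0.063 and Ghrh from 0.039 to 0.0080, none of them called. Kiss1 could be tested only without the filter and by DESeq2, and was not called.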

Other observations

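In sub-cluster 11, which was left out of the tests, TRα1+m repeat 2 had 4 nuclei, and 1 of them held 332 of the 334 Sst UMIs found there. WT repeat 1, WT repeat 2 and TRα1+m repeat 1 had 32, 6 and 42 Sst UMIs in 81, 44 and 133 nuclei.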
